A study of Homo sapiens with 22 samples.

Results

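The 8 regulators of the integrated stress response described here are ATF4, ATF5, DDIT3 (which encodes CHOP), TRIB3, PPP1R15A (which encodes GADD34), CEBPB, CEBPG and NUPR1. They were taken by name, as every probe that the platform's annotation assigns to one of these symbols. These genes and the gene lists below were chosen with earlier results of these data known. Counts over them, set beside the shares of all genes, are therefore descriptions and not tests of the lists. ATF4 had 3 such probes, NUPR1 had 2 and each of the other genes had 1, and all 11 probes passed the filter on dim probes. The 8 genes were among 10147 genes tested, out of 18852 genes on the array with a probe of 1 symbol. The samples were total RNA of HEK293T, a readily transfected human cell line of embryonic kidney origin with the large T antigen of SV40. Every sample had been transfected, either with an siRNA against Satellite III (Sat III) transcripts, which are non-coding RNAs copied from pericentromeric repeats, or with a scrambled siRNA. In each arm, cells were kept at 37 °C (untreated), heated in a water bath at 42 °C for 1 h (heat shock), or heated in the same way and collected after 6 h of recovery. With Sat III siRNA there were 3 samples of untreated cells, 3 of heat-shocked cells and 4 of recovering cells, and with scrambled siRNA there were 4 of each. All samples came from this line, and 0 probes on the array are annotated to Sat III, so the knockdown itself could not be checked. The labels number the replicates without naming separate cultures, so the p-values below reflect how far these samples spread and nothing more, and that spread may be technical.

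In the integrated stress response, kinases that sense amino acid shortage, unfolded protein, double-stranded RNA or haem deficiency phosphorylate the translation factor eIF2. General protein synthesis then falls, while the mRNA of the transcription factor ATF4 is translated more efficiently through upstream reading frames, so that ATF4 activity is set largely above the level of its mRNA. ATF4, ATF5, CHOP, C/EBPβ and C/EBPγ are basic leucine zipper proteins that pair with one another on DNA. Their targets include TRIB3, a pseudokinase that restrains ATF4 and AKT signalling, and PPP1R15A, whose product brings a phosphatase back to eIF2 and so ends the response. NUPR1 encodes a small chromatin-associated protein induced by many stresses. These roles are background knowledge and not results of these arrays.

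Upstream sequences are described first, and printed for the genes that held a match to a short motif that bZIP factors are known to bind. RefSeq windows (GRCh38.p14) were at hand for 7 of the 8 genes, with 15 annotated start sites in all, and NUPR1 was not among them. The 250 bases before each start were searched on both strands for the C/EBP-ATF element (CARE, TGATGNAA), the cAMP response element (CRE, TGACGTCA), the AP-1 site (TGANTCA), a heat shock element (GAANNTTCNNGAA) and the ER stress element (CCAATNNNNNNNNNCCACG). Of 35116 such windows, 3.14% held the CARE, 1.65% the CRE, 6.57% the AP-1 site, 0.441% the heat shock element and 0.074% the ER stress element. In the sequences printed here, 5′ to 3′ on the gene's own strand, capitals mark the match, and no match overlapped another. PPP1R15A (chr19:48872421-48876058) had a CRE whose first base lies at -58 from the start, in a window at chr19:48872171-48872420 on the plus strand. DDIT3 (chr12:57516588-57520517) had an AP-1 match at -238, in a window at chr12:57520518-57520767 on the minus strand. CEBPG (chr19:33373709-33382686) had a CARE at -42 from a start site 404 bases inside the gene, shown as 30 bases at chr19:33374060-33374089 on the plus strand. ATF5 (chr19:49928906-49933935) had an AP-1 match at -188, shown as 30 bases at chr19:49928707-49928736 on the plus strand.
PPP1R15A: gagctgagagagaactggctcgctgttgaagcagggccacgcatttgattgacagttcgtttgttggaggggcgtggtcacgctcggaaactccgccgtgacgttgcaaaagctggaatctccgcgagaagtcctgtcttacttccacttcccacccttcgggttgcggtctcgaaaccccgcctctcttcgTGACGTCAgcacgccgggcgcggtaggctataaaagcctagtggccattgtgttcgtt
DDIT3: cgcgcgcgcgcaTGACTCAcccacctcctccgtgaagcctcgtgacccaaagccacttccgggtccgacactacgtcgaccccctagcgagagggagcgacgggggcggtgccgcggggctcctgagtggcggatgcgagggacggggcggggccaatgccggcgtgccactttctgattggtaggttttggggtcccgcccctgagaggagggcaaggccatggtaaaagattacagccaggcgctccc
CEBPG: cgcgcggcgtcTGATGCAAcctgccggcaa
ATF5: ggagagtgctgTGACTCAtgctggactcta
The windows of ATF4 (chr22:39520559-39522686), TRIB3 (chr20:380760-397559) and CEBPB (chr20:50190583-50192690) held none of these letters, and no window of the 7 genes held the heat shock or ER stress element. NUPR1 lies at chr16:28532708-28538974. A match describes these letters only, and binding was not measured.

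Median raw intensities ran from 48.85 to 64.63 per array, with the 12 arrays of replicates 1 and 2 at 56.54 to 64.63 and the 10 arrays of replicates 3 and 4 at 48.85 to 54.75. Between 13176 and 14863 of the 48803 probes per array were above background (detection p under 0.01). Labels of the deposited tables went against each other: in the table the authors normalised, 15 of 22 columns ranked the probes like the equally labelled scanner column, 6 matched another array and 1 matched none. Some of these matches crossed the arms: the column labelled untreated scrambled siRNA replicate 4 matched the scanner column of recovering Sat III siRNA replicate 3. The scanner table is used below, since its treatment labels fitted the heat shock gene HSPA6. Each result on the 8 genes is also given for the 15 arrays where the tables match if that changes a call. The log2 level of HSPA6 was 12.58 to 13.72 in Sat III siRNA and 12.49 to 13.74 in scrambled siRNA heat-shocked cells, against 4.56 to 4.69 and 4.59 to 4.89 in the untreated cells of these arms. These levels overlapped between the arms, so HSPA6 checks the treatment labels and cannot check the siRNA labels of those arrays. In recovering cells HSPA6 was at 9.61 to 9.89 with Sat III siRNA and 10.08 to 10.6 with scrambled siRNA, between the levels of the other treatments. The arms did not overlap there. Which level belongs to which siRNA was not known from elsewhere, so this does not check the siRNA labels either. The siRNA labels, on which the comparisons between the arms rest, were not otherwise checked. Of 7 genes listed for HEK293T cells, 6 were detected on all 22 arrays and PAX2 on none. Of the leukocyte markers, PTPRC and CD3E were detected on no array. CD14 rose with heat shock in the Sat III siRNA arm (0.96 ± 0.20 log2, SE; adjusted p = 0.00231, limma), and the summed linear level of the leukocyte markers was 110 to 140 in those arrays, against 83.8 to 92.1 in untreated Sat III siRNA cells. With scrambled siRNA the sum was 105 to 110 after heat shock, against 82.2 to 94.7, and after recovery it was 79.1 to 97.4 with Sat III siRNA and 85.3 to 121 with scrambled siRNA. Its part in the results below was not tested.

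**Figure D1:**
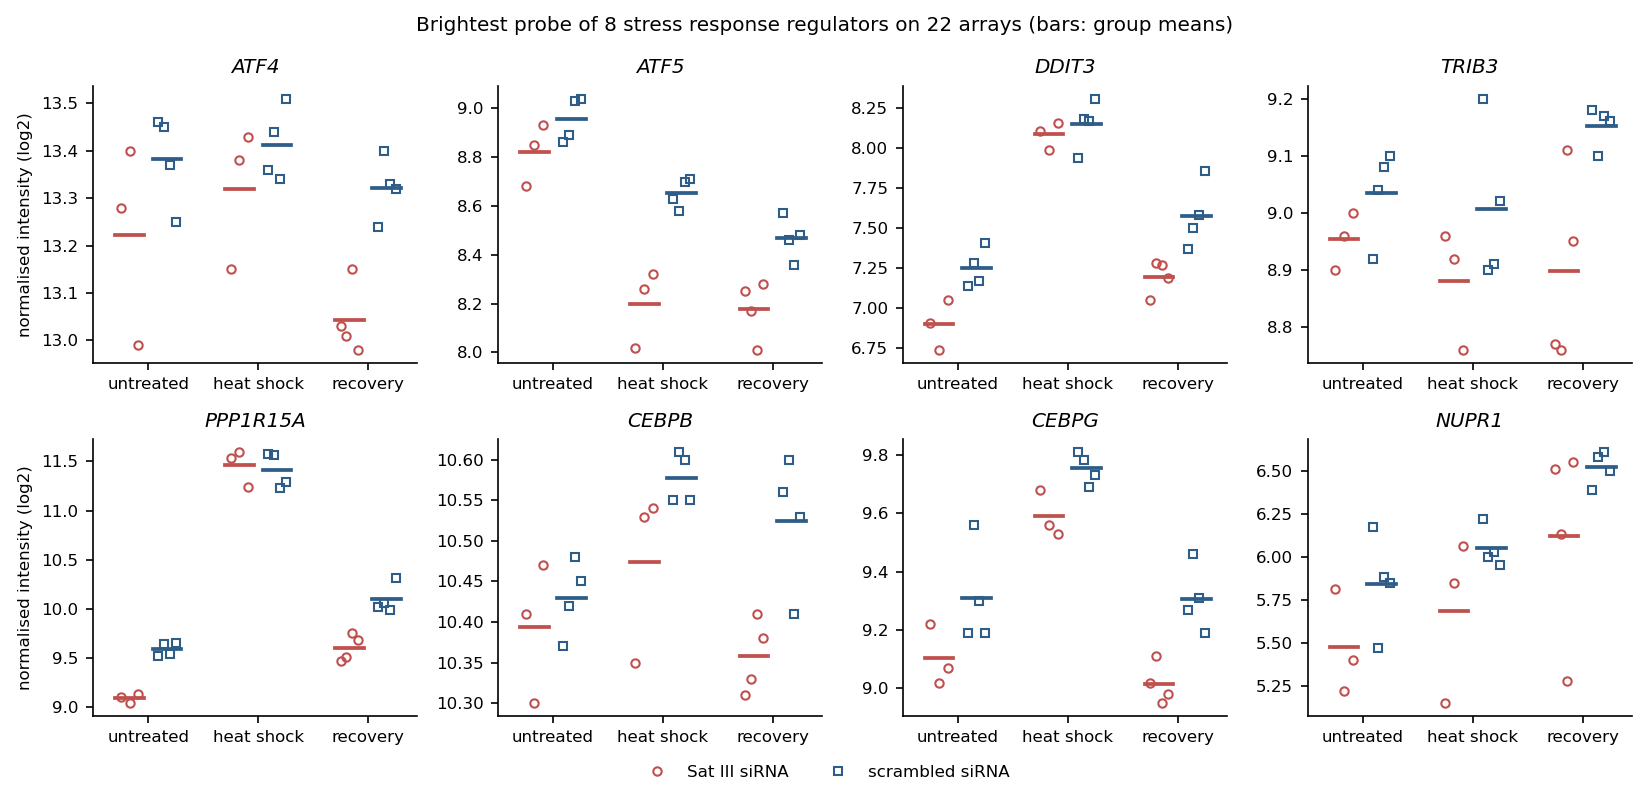
Normalised log2 intensity (vertical axis, scaled per gene) of the brightest probe of each of the 8 genes by treatment (horizontal axis), with Sat III siRNA arrays as circles, scrambled siRNA arrays as squares and group means as bars. PPP1R15A and DDIT3 are highest on the heat shock arrays of both arms, ATF5 is lower on heat shock and recovery arrays than on untreated ones, TRIB3 stays between 8.76 and 9.20, and CEBPB stays between 10.30 and 10.61.

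With heat shock of 1 h, 3 of the 8 genes rose in each arm, PPP1R15A, DDIT3 and CEBPG, and 1 fell, ATF5. PPP1R15A changed most, with its mRNA 5.19-fold higher in Sat III siRNA and 3.56-fold higher in scrambled siRNA cells than in the untreated cells of the same arm. DDIT3 was 2.28-fold and 1.87-fold higher. ATF4 itself, by its brightest probe, and TRIB3, CEBPB and NUPR1 did not pass the threshold in either arm. Across all genes tested, 4.11% rose and 3.51% fell in the Sat III siRNA arm, and 5.97% rose and 5.70% fell in the scrambled arm (limma, Benjamini-Hochberg adjusted p under 0.05 over 10147 genes). The median change over the 8 genes was 0.15 with Sat III siRNA and 0.18 with scrambled siRNA on the log2 scale, where the median of all genes was -0.02 in each.

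For PPP1R15A, the feedback subunit of the eIF2 phosphatase, normalised log2 intensities in replicate order were 11.54, 11.60 and 11.24 in heat-shocked Sat III siRNA cells, against 9.10, 9.04 and 9.13 in untreated ones. In scrambled siRNA cells they were 11.58, 11.57, 11.23 and 11.29 after heat shock, against 9.52, 9.64, 9.54 and 9.65 without it. Every heat shock array stood above every untreated array of its arm. The differences were 2.37 ± 0.11 (SE, adjusted p = 1.1e-12, limma) and 1.83 ± 0.10 (adjusted p = 6.68e-12, limma). Within replicates 1 and 2 they were 2.50 and 1.99. Untreated and heat-shocked Sat III siRNA cells have no replicate 3, so within replicates 3 and 4 the Sat III siRNA value of 2.12 sets 1 array against 1 array, and the value with scrambled siRNA was 1.67. In these bulk samples, more mRNA in every cell and more cells with a high level cannot be told apart.

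DDIT3 encodes CHOP, a bZIP factor linked to cell death under lasting stress. Its log2 intensities were 8.11, 7.99 and 8.16 in heat-shocked and 6.91, 6.74 and 7.05 in untreated Sat III siRNA cells. In scrambled siRNA cells they were 7.94, 8.18, 8.17 and 8.31 after heat shock, against 7.14, 7.28, 7.17 and 7.41. The groups did not overlap in either arm, and the differences were 1.19 ± 0.12 (SE, adjusted p = 2.95e-07, limma) and 0.90 ± 0.10 (adjusted p = 1.64e-06, limma).

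CEBPG encodes C/EBPγ, a partner of ATF4 on DNA. Its level was 9.68, 9.56 and 9.53 in heat-shocked and 9.22, 9.02 and 9.07 in untreated Sat III siRNA cells. With scrambled siRNA it was 9.81, 9.78, 9.69 and 9.73 after heat shock, against 9.19, 9.56, 9.30 and 9.19. The heat shock arrays were again higher throughout, by 0.49 ± 0.10 (SE, adjusted p = 0.00152, limma) and 0.44 ± 0.08 (adjusted p = 0.000734, limma). Within replicates 1 and 2, the heat shock differences with Sat III siRNA and with scrambled siRNA were 1.23 and 0.85 for DDIT3, which passed, and 0.50 and 0.42 for CEBPG, which did not. Within replicates 3 and 4 of the scrambled arm they were 0.95 for DDIT3, which passed, and 0.46 for CEBPG, which did not.

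ATF5, a bZIP factor that like ATF4 has upstream reading frames and is known in mammals for a role in the mitochondrial stress response, went the other way. It was at 8.02, 8.26 and 8.32 in heat-shocked and 8.68, 8.85 and 8.93 in untreated Sat III siRNA cells. With scrambled siRNA it was at 8.63, 8.58, 8.70 and 8.71 after heat shock, against 8.86, 8.89, 9.03 and 9.04. All heat shock arrays lay below the untreated arrays of their arm. ATF5 fell by 0.62 ± 0.09 (SE, adjusted p = 0.000126, limma) with Sat III siRNA and by 0.30 ± 0.08 (adjusted p = 0.0197, limma) with scrambled siRNA. Within replicates 1 and 2 the changes were -0.62, which passed, and -0.27, which did not (adjusted p = 0.212, limma). Within replicates 3 and 4 of the scrambled arm the change was -0.32 and did not pass (adjusted p = 0.257, limma). The change in the scrambled arm no longer passed without scrambled heat shock replicate 1 or 2 or without scrambled untreated replicate 3 or 4 (changes of -0.29 to -0.27, adjusted p = 0.0521 to 0.0645), nor on the 15 arrays where the tables match (-0.29, adjusted p = 0.0685).

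TRIB3 differed by -0.07 with Sat III siRNA and -0.03 with scrambled siRNA on the log2 scale. CEBPB, a bZIP factor of inflammatory and metabolic genes, differed by 0.08 (adjusted p = 0.652, limma) and 0.15 (adjusted p = 0.165, limma). TRIB3 overlapped between the groups in both arms, at 8.76 to 8.96 in heat-shocked against 8.90 to 9.0 in untreated Sat III siRNA cells and at 8.90 to 9.20 against 8.92 to 9.10 with scrambled siRNA. CEBPB overlapped with Sat III siRNA (10.35 to 10.54 against 10.30 to 10.47) and not with scrambled siRNA (10.55 to 10.61 against 10.37 to 10.48). NUPR1 was close to background: its brighter probe was detected on 2 of 3 heat-shocked and 1 of 3 untreated Sat III siRNA arrays, and on all scrambled siRNA arrays, and it differed by 0.21 in each arm. As an alternative to quantile normalisation, each array was scaled by its median (median scaling). That median was taken over all 48803 probes, of which 27% to 30.5% per array were above background. The scaling thus rests on the level of probes not above background, and what this did to the calls was not tested. PPP1R15A and DDIT3 stayed past the threshold in both arms. With Sat III siRNA given first, the calls of CEBPG ended (0.40, adjusted p = 0.807, and 0.32, adjusted p = 0.597, limma). Those of ATF5 ended too (-0.72, adjusted p = 0.0602, and -0.43, adjusted p = 0.28, limma).

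**Figure D2:**
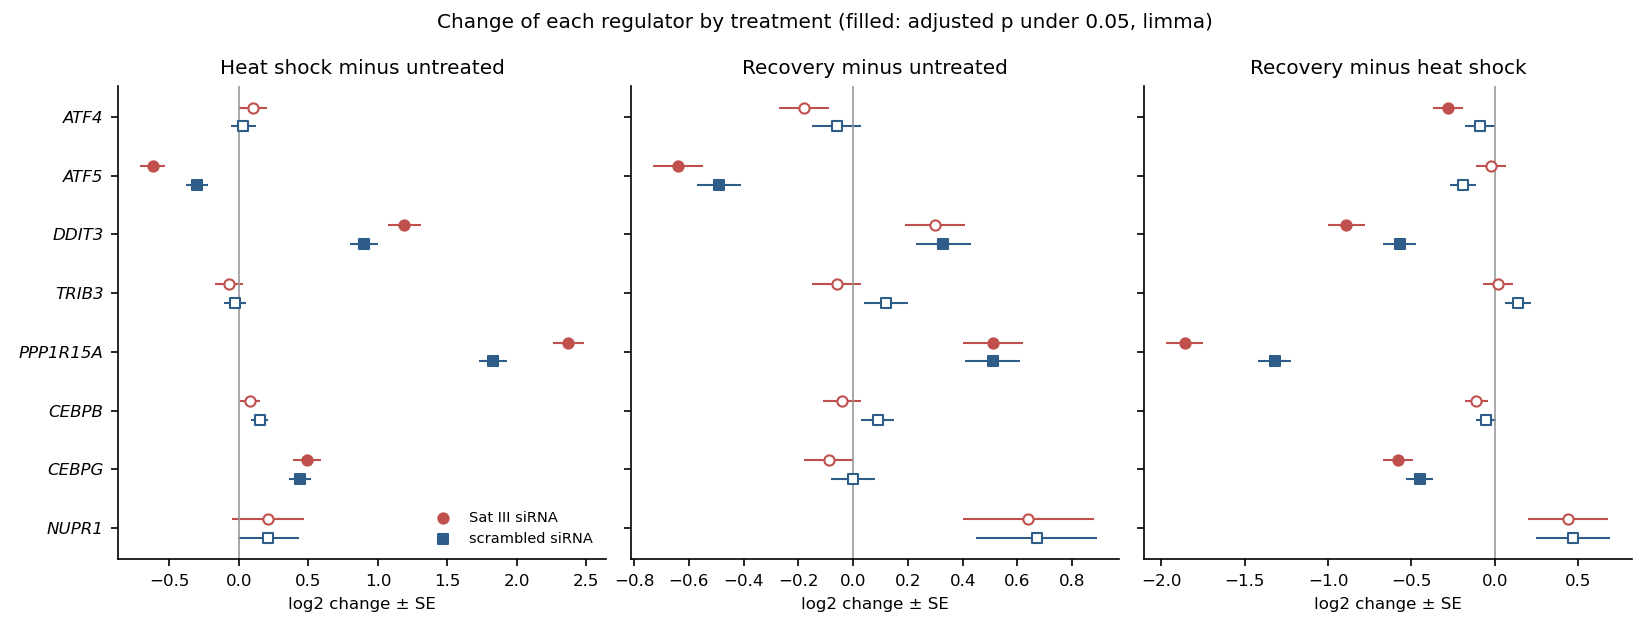
Fitted log2 differences (horizontal axis) with standard errors for the 8 genes (vertical axis), in 1 panel per treatment comparison, with Sat III siRNA as circles, scrambled siRNA as squares and filled markers for an adjusted p under 0.05. With heat shock the points of PPP1R15A (2.37 and 1.83) and DDIT3 (1.19 and 0.90) lie farthest to the right and those of ATF5 (-0.62 and -0.30) to the left of 0.

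The 3 ATF4 probes did not move together. The brightest and the dimmest are annotated to the same transcript record, and the second to another. In untreated scrambled siRNA cells the mean linear level was 10700 for the brightest and 73.9 for the dimmest. Probe positions were not at hand, so no probe's change can be assigned to a transcript variant. The brightest probe was at 13.15, 13.38 and 13.43 in heat-shocked and 13.28, 13.40 and 12.99 in untreated Sat III siRNA cells. In scrambled siRNA cells it was at 13.36, 13.44, 13.34 and 13.51, against 13.46, 13.45, 13.37 and 13.25. These arrays overlapped, and the differences of 0.10 ± 0.10 (SE, adjusted p = 0.651, limma; 95% interval -0.10 to 0.31) and 0.03 ± 0.09 (adjusted p = 0.88, limma; 95% interval -0.15 to 0.21) did not pass. The second probe was likewise not called with heat shock in either arm.

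The dimmest ATF4 probe was above background on every untreated and recovery array and on no heat shock array. Its log2 values were 5.09, 5.11 and 4.88 on heat shock arrays and 5.97, 6.63 and 6.17 on untreated arrays of Sat III siRNA cells. With scrambled siRNA they were 4.56, 4.80, 5.18 and 4.94 after heat shock, against 6.26, 5.86, 6.27 and 6.40. No heat shock array reached an untreated one, so the heat shock level has only an upper bound: set against the lowest signal detected on each array (5.21 to 5.62 over all arrays), it was at least 1.76-fold lower with Sat III siRNA and at least 1.61-fold lower with scrambled siRNA. The fitted differences, which depend on the background correction and are no bounds, were -1.23 ± 0.21 (SE, adjusted p = 0.00062, limma) and -1.33 ± 0.19 (adjusted p = 3.59e-05, limma), with 3.03% and 4.85% of all 15324 probes called lower in these arms. After 6 h of recovery the probe was back at 6.09, 6.74, 6.90 and 6.21 with Sat III siRNA and at 6.51, 5.85, 6.29 and 6.44 with scrambled siRNA. That was at least 2.07-fold and at least 1.69-fold above the heat shock level (1.46 ± 0.20, adjusted p = 1.96e-05, and 1.40 ± 0.19, adjusted p = 1.22e-05, limma), where 10.3% and 10.5% of probes were called higher. The calls of this probe also passed on the 15 arrays where the tables match, with adjusted p-values of 0.0208 and 0.00241 for heat shock.

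Between heat shock and recovery, the second probe moved in the opposite direction from the dimmest one. The second probe was at 8.29, 8.56, 8.26 and 8.13 in recovering and 8.69, 8.97 and 8.61 in heat-shocked Sat III siRNA cells. In scrambled siRNA cells it was at 8.51, 8.64, 8.24 and 8.68, against 9.07, 8.97, 8.74 and 8.71. It fell by 0.45 ± 0.12 (SE, adjusted p = 0.0139, limma) and by 0.35 ± 0.11 (adjusted p = 0.0341, limma), where 8.41% and 8.46% of probes were called lower. Under median scaling it did not pass (adjusted p = 0.486 and 0.592), and on the 15 arrays only the scrambled arm did (adjusted p = 0.0266, against 0.128 with Sat III siRNA). A gene-level value for ATF4 therefore depends on the probe, and the mean of the 3 probes gave -0.32 with Sat III siRNA and -0.42 with scrambled siRNA for heat shock, opposite in sign to the brightest probe.

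**Figure D3:**
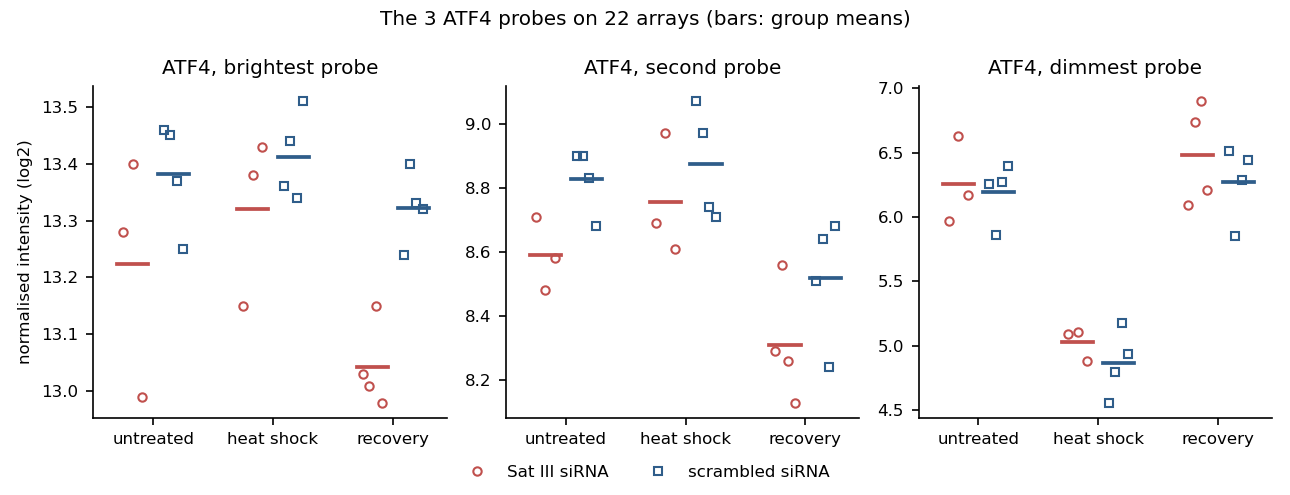
Normalised log2 intensity (vertical axis, scaled per probe) of the 3 ATF4 probes by treatment (horizontal axis), with Sat III siRNA arrays as circles, scrambled siRNA arrays as squares and group means as bars. The dimmest probe sits between 4.56 and 5.18 on the heat shock arrays and between 5.85 and 6.90 on all others, while the other 2 probes show no such drop.

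After 6 h of recovery, PPP1R15A remained above and ATF5 below the untreated level in both arms. DDIT3 passed the threshold with scrambled siRNA only, though its change was similar in the arms (0.30 with Sat III siRNA and 0.33 with scrambled siRNA). With Sat III siRNA, 1 of the 8 genes was higher and 1 lower than in untreated cells, where 6.05% of all genes rose and 5.94% fell. With scrambled siRNA 2 were higher and 1 lower, where 5.90% rose and 5.00% fell. The median over the 8 genes was -0.05 with Sat III siRNA and 0.11 with scrambled siRNA, and the second value was -0.014 under median scaling. The heat shock and recovery comparisons share their untreated arrays.

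PPP1R15A was at 9.47, 9.51, 9.75 and 9.68 in recovering Sat III siRNA cells and at 10.02, 10.06, 9.99 and 10.31 in recovering scrambled siRNA cells. All of these arrays were above the untreated arrays of their arm and below its heat shock arrays. The difference from untreated cells was 0.51 ± 0.11 with Sat III siRNA (SE, 1.43-fold, adjusted p = 0.00311, limma) and 0.51 ± 0.10 with scrambled siRNA (1.43-fold, adjusted p = 0.00168, limma). Within replicates 1 and 2 the differences were 0.42 and 0.46, which passed. Within replicates 3 and 4 of the scrambled arm the difference was 0.56 and did not pass (adjusted p = 0.0858, limma). On the 15 arrays where the tables match, the difference with Sat III siRNA was 0.42 and did not pass (adjusted p = 0.0579).

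ATF5 stayed low, at 8.25, 8.17, 8.01 and 8.28 in recovering Sat III siRNA cells and 8.57, 8.46, 8.36 and 8.48 in recovering scrambled siRNA cells. The recovery arrays lay below all untreated arrays of their arm. ATF5 fell by 0.64 ± 0.09 (SE, adjusted p = 7.82e-05, limma) and by 0.49 ± 0.08 (adjusted p = 0.000559, limma) relative to untreated cells. Between recovery and heat shock its differences of -0.02 (adjusted p = 0.887) and -0.19 (adjusted p = 0.106, limma) did not pass.

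DDIT3 was at 7.05, 7.28, 7.27 and 7.19 in recovering Sat III siRNA cells and 7.37, 7.50, 7.58 and 7.86 in recovering scrambled siRNA cells. Recovery arrays overlapped the untreated ones in each arm. The differences were 0.30 ± 0.11 (SE, adjusted p = 0.0817, limma) and 0.33 ± 0.10 (adjusted p = 0.0416, limma). The second no longer passed without any one of scrambled untreated replicates 1, 2 and 3, scrambled recovery replicates 2, 3 and 4, or Sat III siRNA untreated replicate 1, with changes of 0.23 to 0.36 and adjusted p-values of 0.0501 to 0.152. It also did not pass on the 15 arrays where the tables match (0.29, adjusted p = 0.104). Nor did it pass within replicates 1 and 2 (0.22, adjusted p = 0.399, limma) or within replicates 3 and 4 (0.43, adjusted p = 0.16, limma). The DDIT3 change with Sat III siRNA passed with the replicate number as a block. Between the arms the recovery change of DDIT3 differed by -0.03 ± 0.15 (SE, adjusted p = 0.999, limma).

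CEBPG was at 9.02, 9.11, 8.95 and 8.98 with Sat III siRNA and at 9.27, 9.46, 9.31 and 9.19 with scrambled siRNA after recovery. Its differences from untreated cells were -0.09 (adjusted p = 0.585) and 0.00 (adjusted p = 0.994, limma), within the spread of the arrays. The brighter NUPR1 probe was at 6.51, 6.13, 5.28 and 6.55 in recovering and 5.81, 5.22 and 5.40 in untreated Sat III siRNA cells. With scrambled siRNA it was at 6.39, 6.58, 6.61 and 6.50, against 6.17, 5.47, 5.88 and 5.85. With Sat III siRNA it was above background on 3 of 4 recovery and 1 of 3 untreated arrays, so that the fitted value there rests partly on background. The scrambled arrays did not overlap, but the differences of 0.64 ± 0.24 (SE, adjusted p = 0.0855, limma) and 0.67 ± 0.22 (adjusted p = 0.0541, limma) did not pass. Without Sat III siRNA recovery replicate 3, which was low for this probe, they were 0.92 (adjusted p = 0.00532) and 0.67 (adjusted p = 0.0132). The scrambled difference also passed without scrambled untreated replicate 1, Sat III siRNA heat shock replicate 1 or 4, or Sat III siRNA recovery replicate 4 (adjusted p = 0.0369 to 0.0496).

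The dimmer NUPR1 probe was above background on all 4 recovery arrays and on 0 of 3 untreated arrays of Sat III siRNA cells, with values of 5.44, 5.81, 5.67 and 5.78 against 4.64, 5.41 and 4.47. It was at least 1.17-fold higher in recovering cells (0.84 ± 0.23, SE, adjusted p = 0.0273, limma, with 4.91% of probes called higher), and it did not pass under median scaling (0.80, adjusted p = 0.202) or on the 15 arrays (0.60, adjusted p = 0.32). TRIB3 and CEBPB were not called in either arm. Median scaling left none of these recovery calls against untreated cells past the threshold, with PPP1R15A at 0.41 (adjusted p = 0.546) and 0.39 (adjusted p = 0.558), and ATF5 at -0.73 (adjusted p = 0.0836) and -0.58 (adjusted p = 0.175).

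Set against heat-shocked cells, recovering cells had lower PPP1R15A, DDIT3 and CEBPG in both arms and lower ATF4, by its brightest probe, with Sat III siRNA. Thus 0 of 8 genes rose and 4 fell with Sat III siRNA, where 11.8% of all genes rose and 9.75% fell. With scrambled siRNA 0 rose and 3 fell, where 12.2% rose and 9.53% fell. PPP1R15A fell by 1.86 ± 0.11 (SE, adjusted p = 2.4e-11, limma) with Sat III siRNA and by 1.32 ± 0.10 (adjusted p = 2.47e-09, limma) with scrambled siRNA. DDIT3 fell by 0.89 ± 0.11 (adjusted p = 4.51e-06) and by 0.57 ± 0.10 (adjusted p = 0.000328), and CEBPG by 0.58 ± 0.09 (adjusted p = 6.03e-05) and by 0.45 ± 0.08 (adjusted p = 0.000446). For these 3 genes, called on the same arrays, no recovery array reached a heat shock array of the same arm, which adds no separate support. In the same comparison with Sat III siRNA, CD14 fell by 0.90 (adjusted p = 0.00108, limma) and the fibroblast marker LUM was higher (0.42, adjusted p = 0.0311, limma). The summed level of the 6 fibroblast markers, 4 of which were detected on no array, was 226 to 249 in recovering and 218 to 225 in heat-shocked Sat III siRNA cells, and their part in the result was not tested.

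The brightest ATF4 probe was at 13.03, 13.01, 13.15 and 12.98 in recovering and, as above, at 13.15 to 13.43 in heat-shocked Sat III siRNA cells. It fell by 0.28 ± 0.09 (SE, adjusted p = 0.0333, limma), with the highest recovery array level with the lowest heat shock array. Without Sat III siRNA recovery replicate 1, 2 or 4 or heat shock replicate 2 or 4 the change was -0.28 to -0.23 and did not pass (adjusted p = 0.0607 to 0.153), nor did it on the 15 arrays (-0.25, adjusted p = 0.128). In scrambled siRNA cells it was at 13.24, 13.40, 13.33 and 13.32, and the difference of -0.09 did not pass (adjusted p = 0.511, limma). NUPR1 passed here with Sat III siRNA only without recovery replicate 3 (0.72, adjusted p = 0.0135) or on the 15 arrays (0.83, adjusted p = 0.0425). Under median scaling the calls of DDIT3 with scrambled siRNA (-0.51, adjusted p = 0.0546), CEBPG in both arms (-0.60, adjusted p = 0.139, and -0.43, adjusted p = 0.3) and ATF4 (-0.39, adjusted p = 0.371) ended.

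Comparing Sat III siRNA with scrambled siRNA cells under the same treatment asks whether the Sat III siRNA, whose knockdown could not be checked, went with a different level of these genes. PPP1R15A was lower with Sat III siRNA in untreated and recovering cells, and ATF5 in heat-shocked and recovering cells. The fitted differences were below 0 for 8 of 8 genes in untreated cells, 7 of 8 after heat shock and 8 of 8 after recovery. Of all 10147 genes, 5066, 4975 and 4911 were below 0 in that order. The 8 genes were measured on the same arrays, and some moved together, so their signs are not independent. Most of the 8 genes' differences did not pass. Lower with Sat III siRNA past the threshold were 1 gene in untreated cells (PPP1R15A), 1 gene after heat shock (ATF5) and 5 genes after recovery (ATF4 by its brightest probe, ATF5, DDIT3, PPP1R15A and CEBPG), and 0 of 8 passed in the other direction. Among all genes, 3.82%, 4.68% and 6.92% were lower and 2.27%, 2.35% and 3.60% higher with Sat III siRNA in untreated, heat-shocked and recovering cells. The medians over the 8 genes were -0.18, -0.12 and -0.29 in that order of treatment, while the medians of all genes were 0.00, 0.00 and 0.01.

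PPP1R15A was lower with Sat III siRNA before heat shock and after recovery, and level with scrambled siRNA during heat shock. In untreated cells its array values of 9.04 to 9.13 with Sat III siRNA and 9.52 to 9.65 with scrambled siRNA did not overlap, and the difference was -0.50 ± 0.11 (SE, adjusted p = 0.005, limma). After recovery, values of 9.47 to 9.75 with Sat III siRNA and 9.99 to 10.31 with scrambled siRNA gave -0.50 ± 0.10 (adjusted p = 0.00161, limma). After heat shock the arrays overlapped and the difference was 0.05 ± 0.11 (adjusted p = 0.869, limma), with a 95% interval of -0.17 to 0.27. The untreated and recovery differences were -0.51 and -0.55 within replicates 1 and 2, which passed. Within replicates 3 and 4 the recovery difference was -0.44 and did not pass (adjusted p = 0.143), and the untreated one of -0.47 rests on 1 Sat III siRNA array. Leaving out any 1 array kept the recovery call of PPP1R15A (highest adjusted p = 0.00869).

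ATF5 was lower with Sat III siRNA in heat-shocked cells, at 8.02 to 8.32 against 8.58 to 8.71 with scrambled siRNA. These arrays did not overlap, and the difference was -0.46 ± 0.09 (SE, adjusted p = 0.00196, limma). After recovery it was -0.29 ± 0.08 (adjusted p = 0.0243, limma), again with no overlap, and it did not pass without scrambled recovery replicate 1 or Sat III siRNA recovery replicate 2 or 3 (-0.29 to -0.23, adjusted p = 0.0538 to 0.0862). In untreated cells the difference of -0.13 did not pass (adjusted p = 0.429, limma).

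The other recovery calls rested on small differences. The brightest ATF4 probe was lower by 0.28 on the log2 scale with Sat III siRNA, a fitted difference of -0.28 ± 0.09 (SE, adjusted p = 0.0356, limma), with arrays at 12.98 to 13.15 against 13.24 to 13.40. The other ATF4 probes did not pass, the second at -0.21 (adjusted p = 0.307, limma) and the dimmest, of the opposite sign, at 0.21 (adjusted p = 0.567, limma). DDIT3 had a difference of -0.38 ± 0.10 (adjusted p = 0.0181, limma), with arrays at 7.05 to 7.28 against 7.37 to 7.86. CEBPG had a difference of -0.29 ± 0.08 (adjusted p = 0.0238, limma), with arrays at 8.95 to 9.11 against 9.19 to 9.46. The arms did not overlap for any of the 3 genes, which had passed on these same arrays, so this adds no separate support. The ATF4 call ended without any one of Sat III siRNA recovery replicates 1, 2 and 4 or scrambled recovery replicates 2, 3 and 4 (-0.28 to -0.26, adjusted p = 0.0643 to 0.0962). The DDIT3 call ended without Sat III siRNA recovery replicate 1 or scrambled recovery replicate 4 (-0.33 and -0.29, adjusted p = 0.0651 and 0.0748). The CEBPG call ended without scrambled recovery replicate 2 or Sat III siRNA recovery replicate 3 or 4 (-0.28 to -0.24, adjusted p = 0.0607 to 0.0888).

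TRIB3 after recovery was at 8.77, 8.76, 9.11 and 8.95 with Sat III siRNA and at 9.18, 9.10, 9.17 and 9.16 with scrambled siRNA. Its difference of -0.25 ± 0.08 (SE, adjusted p = 0.0543, limma) did not pass, and it did without Sat III siRNA recovery replicate 3 (-0.32, adjusted p = 0.0137), without scrambled heat shock replicate 1 (-0.25, adjusted p = 0.0423), with replicates 1 and 2 against 3 and 4 as a block (-0.25, adjusted p = 0.0443) or on the 15 arrays (-0.39, adjusted p = 0.0347). CEBPB differed by -0.17 after recovery (adjusted p = 0.112, limma). DDIT3 in untreated cells, at 6.91, 6.74 and 7.05 with Sat III siRNA and 7.14, 7.28, 7.17 and 7.41 with scrambled siRNA, differed by -0.35 ± 0.11 with no overlap of the arrays and did not pass (adjusted p = 0.0637, limma), though it did without scrambled recovery replicate 4 (-0.35, adjusted p = 0.0356) and with replicates 1 and 2 against 3 and 4 as a block (-0.33, adjusted p = 0.036). NUPR1 differed by -0.37, -0.37 and -0.40 in untreated, heat-shocked and recovering cells, with none called.

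On the 15 arrays where the tables match, 2 of the 8 genes passed after recovery, PPP1R15A and TRIB3, while ATF4 (-0.31, adjusted p = 0.0719), ATF5 (-0.26, adjusted p = 0.186), DDIT3 (-0.32, adjusted p = 0.123) and CEBPG (-0.28, adjusted p = 0.189) did not. Under median scaling 0 of the 7 differences between the arms passed, with adjusted p-values of 0.291 to 0.909 and the same signs.

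**Figure D4:**
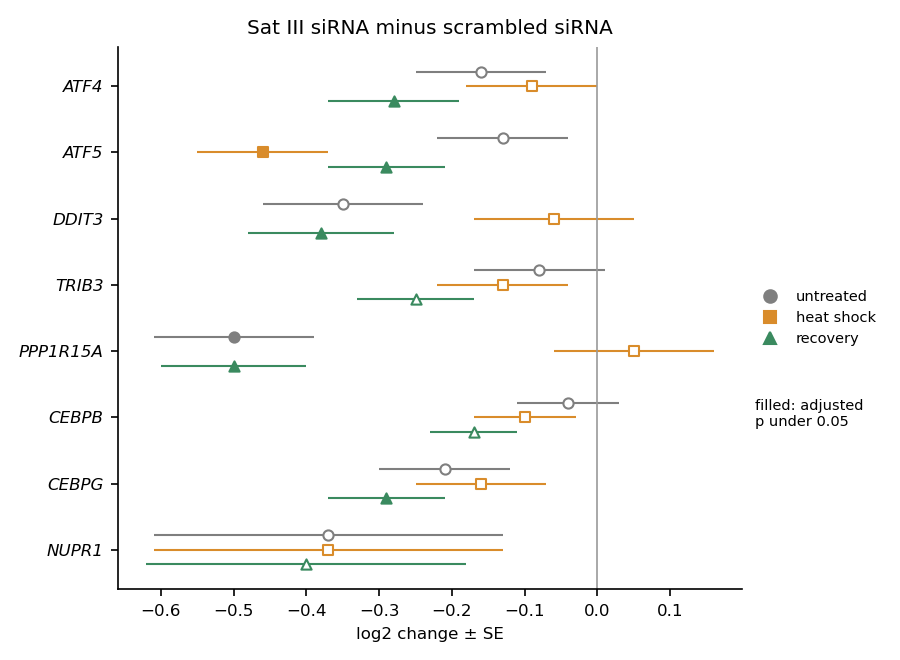
Fitted log2 difference of Sat III siRNA minus scrambled siRNA cells (horizontal axis) with standard errors for the 8 genes (vertical axis), as circles for untreated, squares for heat-shocked and triangles for recovering cells, filled where the adjusted p was under 0.05. All points after recovery lie left of 0, and PPP1R15A is at 0.05 after heat shock, against -0.50 in untreated and recovering cells.

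Whether the response itself differed between the arms was tested as a difference of differences. None of the 8 genes passed for heat shock or for recovery, and 0.00% of all genes did in each test (limma, 0 of 10147, with 368 and 387 genes at an unadjusted p under 0.05). The heat shock change of PPP1R15A differed by 0.54 ± 0.15 between Sat III siRNA and scrambled siRNA cells and did not pass (SE, 95% interval 0.23 to 0.85, unadjusted p = 0.0015, adjusted p = 0.929). ATF5 differed by -0.32 ± 0.13 in the same test (unadjusted p = 0.018, adjusted p = 0.997). For recovery the PPP1R15A difference was 0.00 ± 0.14.

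Upstream of the 8 genes, of 20 listed genes for eIF2 kinases, eIF2 and eIF2B subunits and their phosphatases and regulators, 18 were tested. With Sat III siRNA 0 of 18 rose or fell with heat shock, where 4.11% of all genes rose and 3.51% fell, and with scrambled siRNA 2 rose and 0 fell, where 5.97% rose and 5.70% fell. These 2 were NCK1, an adaptor known to bind eIF2 kinases and phosphatases (0.65 ± 0.11, SE, adjusted p = 0.000417, limma), and EIF2S2, the beta subunit of eIF2 (0.46 ± 0.09, adjusted p = 0.00129, limma). Between recovering and untreated cells, 0 of the 18 passed in either arm. Of all genes, 6.05% rose and 5.94% fell there with Sat III siRNA, and 5.90% rose and 5.00% fell with scrambled siRNA. Between the arms, 1 of the 18 was higher and 0 lower with Sat III siRNA after heat shock, where 2.35% of all genes were higher and 4.68% lower. It was EIF2S1, the subunit that the kinases phosphorylate (0.43, adjusted p = 0.0288, limma). After recovery 0 were higher and 1 lower, where 3.60% of all genes were higher and 6.92% lower. That 1 was EIF2AK1, the haem-regulated kinase (-0.25, adjusted p = 0.0275, limma). In untreated cells 0 of the 18 passed between the arms, where 2.27% were higher and 3.82% lower. Between recovery and heat shock, 0 rose and 2 fell with Sat III siRNA (NCK1 by 0.36 and EIF2B5 by 0.34). Of all genes, 11.8% rose and 9.75% fell there. With scrambled siRNA 1 rose and 2 fell (DNAJC3 by 0.35 up, NCK1 by 0.51 and EIF2S2 by 0.32 down). There 12.2% of all genes rose and 9.53% fell. Under median scaling 0 of the 18 passed in any comparison (EIF2S1 adjusted p = 0.857, EIF2AK1 0.97, NCK1 with heat shock 0.15, EIF2S2 0.487). On the 15 arrays NCK1 and EIF2S2 passed with heat shock, and EIF2S1 (adjusted p = 0.166) and EIF2AK1 (0.0799) did not pass between the arms.

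Of 37 listed targets of ATF4 and CHOP, 29 were tested. With heat shock 3 rose and 1 fell with Sat III siRNA, and 3 rose and 0 fell with scrambled siRNA, beside the shares of all genes given above (4.11% and 5.97% higher, 3.51% and 5.70% lower). In both arms the 3 were DDIT4 (2.36 ± 0.12 and 2.67 ± 0.10, SE), an inhibitor of mTORC1 signalling, STC2 (1.01 and 0.99), a secreted glycoprotein, and SLC3A2 (0.64 and 0.61), the heavy chain of amino acid transporters. The gene that fell with Sat III siRNA was SLC1A5, a glutamine transporter (-0.54, adjusted p = 0.0453, limma). The list medians were -0.02 and 0.01, and the second was -0.08 under median scaling. That scaling ended the calls of SLC3A2 (adjusted p = 0.196 and 0.102) and SLC1A5 (0.481), so that DDIT4 and STC2 remained in each arm, and SLC1A5 did not pass on the 15 arrays either (adjusted p = 0.145).

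Between recovering and untreated cells, 8 of the 29 targets rose and 1 fell with Sat III siRNA, where 6.05% of all genes rose and 5.94% fell, and 9 rose and 0 fell with scrambled siRNA, where 5.90% rose and 5.00% fell. The list medians were 0.13 and 0.14, where all genes had a median of -0.01 in each arm. SLC6A9, a glycine transporter, was at 6.44 to 6.95 in recovering and 5.87 to 6.06 in untreated Sat III siRNA cells (0.71 ± 0.14, SE, adjusted p = 0.00235, limma). In scrambled siRNA cells it was at 6.97 to 7.53, against 6.11 to 6.44 (0.92 ± 0.13, adjusted p = 9.78e-05, limma). The groups did not overlap in either arm. Others that rose in both arms, with Sat III siRNA given first, included SLC3A2 (0.60 and 0.46) and the lipoprotein receptor VLDLR (0.56 and 0.37). In the same order, PSAT1, an enzyme of serine synthesis, rose by 0.36 and 0.55. SLC7A5, a transporter of large neutral amino acids, rose by 0.39 and 0.49. ASNS (0.38 and 0.42) and AARS1 (0.30 and 0.30) rose in both arms too. The cystine transporter SLC7A11 was not above background in untreated scrambled siRNA cells and was at least 1.2-fold higher after recovery (adjusted p = 0.0016, limma). XPOT, which exports tRNA, fell by 0.46 with Sat III siRNA (adjusted p = 0.0466, limma). Under median scaling 0 of 29 with Sat III siRNA and 2 of 29 with scrambled siRNA rose, and on the 15 arrays 2 and 6 did, with none lower.

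Between recovery and heat shock, 10 of the 29 targets rose and 3 fell in each arm, where 11.8% of all genes rose and 9.75% fell with Sat III siRNA and 12.2% rose and 9.53% fell with scrambled siRNA. DDIT4 fell by 2.49 and by 2.40 and STC2 by 1.01 and by 0.96, while SLC6A9 rose by 0.88 in each arm and VLDLR by 0.59 and by 0.52. SLC7A11 was called higher in both arms, by at least 1.09-fold with scrambled siRNA, while with Sat III siRNA it was above background on 1 of 4 recovery and 0 of 3 heat shock arrays. Thus DDIT4 and STC2 were high with PPP1R15A and DDIT3 on the heat shock arrays, and SLC6A9 was highest on the recovery arrays. Under median scaling 2 rose and 2 fell with Sat III siRNA and 4 rose and 2 fell with scrambled siRNA.

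**Figure D5:**
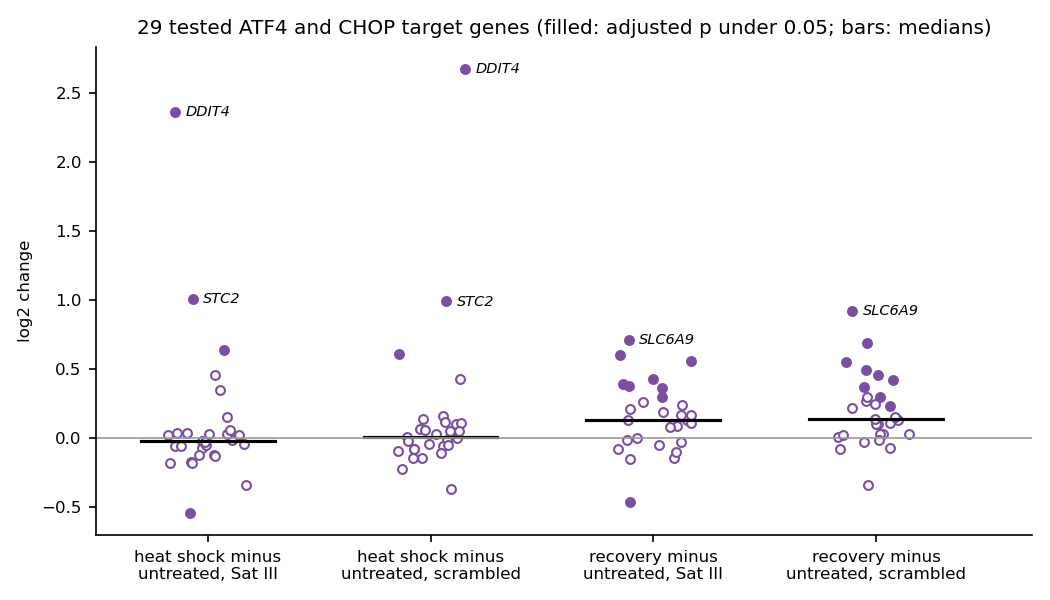
Fitted log2 change (vertical axis) of the 29 tested ATF4 and CHOP targets for heat shock and for recovery against untreated cells in each siRNA arm (horizontal axis), with filled points for an adjusted p under 0.05 and bars for medians. DDIT4 and STC2 stand out after heat shock and SLC6A9 leads after recovery, where the medians are 0.13 with Sat III siRNA and 0.14 with scrambled siRNA.

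Set against scrambled siRNA, 1 of the 29 targets was higher and 3 lower with Sat III siRNA in untreated cells, 0 and 4 after heat shock, and 1 and 9 after recovery. The shares of all genes were 2.27% and 3.82%, 2.35% and 4.68%, and 3.60% and 6.92%. SLC1A5 was lower under all treatments, at 8.25 to 8.44 with Sat III siRNA against 9.47 to 9.64 with scrambled siRNA after heat shock, and its differences were -1.02 ± 0.15, -1.19 ± 0.15 and -0.76 ± 0.14 (SE, adjusted p = 0.000223, 1.75e-05 and 0.00103, limma) in untreated, heat-shocked and recovering cells. The arrays of the arms did not overlap for SLC1A5 under any treatment. The target that was higher after recovery was BCL2L11, a pro-apoptotic BCL2 relative (0.49, adjusted p = 0.0276, limma), named after its value was seen. SESN2, a stress-induced inhibitor of mTORC1, was lower in untreated (-0.45) and recovering cells (-0.54), and XPOT (-0.62) and SLC6A9 (-0.50) were lower after recovery. PCK2, a mitochondrial enzyme of phosphoenolpyruvate synthesis, was lower after heat shock (-0.42) and recovery (-0.43), and SLC6A9 was also lower after heat shock (-0.50). CTH, an enzyme of cysteine synthesis, was lower in untreated (-0.30), heat-shocked (-0.36) and recovering cells (-0.44, adjusted p = 0.000497, limma). DDIT4 was the target that was higher in untreated cells (0.43, adjusted p = 0.0227, limma). Under median scaling these counts were 0 and 0 in untreated cells, 0 and 1 (SLC1A5) after heat shock, and 0 and 0 after recovery, and on the 15 arrays they were 0 and 2, 0 and 3, and 0 and 4. In the difference of differences 0 of the 29 passed.

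Among 17 listed relatives of these factors, 10 were tested, and ATF3, a bZIP repressor that ATF4 and CHOP are known to induce or pair with, moved most. It was at 10.58 to 11.18 in heat-shocked and 8.29 to 8.40 in untreated Sat III siRNA cells, and at 10.83 to 11.31 against 8.63 to 9.02 in scrambled siRNA cells. These arrays did not overlap, and the differences were 2.59 ± 0.14 (SE, adjusted p = 1.8e-11, limma) and 2.14 ± 0.12 (adjusted p = 3.36e-11, limma). It fell by 2.67 and by 1.82 between recovery and heat shock. After recovery ATF3 was at 8.15 to 8.35 with Sat III siRNA and 9.09 to 9.35 with scrambled siRNA, a difference of -0.97 ± 0.12 (adjusted p = 1.51e-05, limma) that passed under median scaling too (-0.98, adjusted p = 0.00668). In untreated cells it was -0.57 (adjusted p = 0.0126, limma), which did not pass under median scaling (-0.60, adjusted p = 0.472) or on the 15 arrays (-0.51, adjusted p = 0.0706).

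Of the 10 relatives, 1 rose and 1 fell with heat shock in the Sat III siRNA arm (TRIB1, a pseudokinase akin to TRIB3, by -0.31), and 2 rose and 3 fell in the scrambled arm, among them ATF2 (0.51), CEBPA (-0.38) and TRIB1 (-0.36), beside 4.11% and 3.51% of all genes with Sat III siRNA and 5.97% and 5.70% with scrambled siRNA. Between recovering and untreated cells 1 rose and 0 fell in each arm, CEBPD by 0.33 with Sat III siRNA and ATF6, the membrane-bound sensor of unfolded protein, by 0.27 with scrambled siRNA. Of all genes, 6.05% rose and 5.94% fell there with Sat III siRNA, and 5.90% rose and 5.00% fell with scrambled siRNA. Between recovery and heat shock 3 rose and 2 fell with Sat III siRNA, where 11.8% of all genes rose and 9.75% fell. With scrambled siRNA 4 rose and 2 fell, where 12.2% of all genes rose and 9.53% fell. CEBPA (0.61 and 0.54) and CEBPD (0.47 and 0.49) were higher and ATF2 (-0.41 and -0.55) lower in both arms. Between the arms, 0 and 1, 0 and 0, and 1 and 1 were higher and lower with Sat III siRNA in untreated, heat-shocked and recovering cells, the last being CEBPD (0.26) and ATF3. The shares of all genes in that order were 2.27% and 3.82%, 2.35% and 4.68%, and 3.60% and 6.92%. Under median scaling ATF3 was the relative that passed: 1 rose and 0 fell with heat shock in each arm, 0 rose and 1 fell between recovery and heat shock in each arm, 0 and 0 passed for recovery against untreated cells, and 0 and 1 between the arms after recovery. On the 15 arrays ATF6 (adjusted p = 0.0539) and TRIB1 with Sat III siRNA (0.16) did not pass.

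The genes whose levels followed the called regulators most closely over the 22 arrays were given by Pearson's r, as a description of arrays that share 6 groups and 1 normalisation. DDIT3 was most like PPP1R15A (0.952), CCN1 (0.942) and SERTAD1 (0.937). PPP1R15A was most like CCN1 (0.988), CSRNP1 (0.98) and BAG3 (0.976), a co-chaperone. CEBPG was most like ZBTB21 (0.933), EGR1 (0.932), an immediate early transcription factor, and STC2 (0.925). ATF5 was most like GPRIN1 (0.883), MID2 (0.881) and MMACHC (0.86), and the brightest ATF4 probe like KLHL3 (0.831), FBXL9P (0.83) and GSTM3 (0.818).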

How the data were processed

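Total RNA (300 ng per sample) was amplified, labelled with biotin and hybridised to Illumina bead arrays, per the labels' protocols. The authors deposited a scanner table of linear intensity values with no normalisation between arrays, as judged from the values, and a detection p-value for each probe per the file headers. They also deposited a normalised intensity table, with a method not given in the sources used here. All 22 arrays were taken by their labels.

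Intensities were background-corrected and quantile-normalised with neqc (limma 3.58.1, R 4.3.3; negative controls from detection p-values, offset 16) and used as log2. Probes with a detection p under 0.01 on at least 3 arrays were kept (15324 of 48803), and the brightest probe stood for each gene (10147 genes). 1 limma model over the 6 groups gave 11 contrasts, Benjamini-Hochberg adjusted over all genes, or over all probes for single probes, at 0.05. The fit was tested on simulated data. Of the probes, 28098 carried 1 symbol, 13 several. The genes and lists were chosen with earlier results of these data known. Besides the 8 genes, up to 4 called genes per list and comparison are named by size of change, and 3 genes most like each called regulator. ASNS, AARS1 and BCL2L11 are named in addition. The number of arrays limits the precision.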

Additional observations from a re-analysis of the deposited data

How the results depend on the processing

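The comparisons gave 27 calls over the 8 genes. All 27 remained with normexp at offset 50, with the replicate number as a block and with replicates 1 and 2 against 3 and 4 as a block, 26 with no filter, with a detection p under 0.05 or with all probes fitted, and 564 of 594 when arrays were left out in turn. Same-number samples were not taken as pairs, since 32 of 51 pairs, not all, correlated above 0.1 (-0.16 to 0.33), although 33 correlated best with their own number and replicate 4 pairs were at 0.17 to 0.33. The replicate block took the count between the arms in untreated cells to 2 (DDIT3, adjusted p = 0.0206) and added DDIT3 in recovering Sat III siRNA cells (adjusted p = 0.0325), as did the 1-2 and 3-4 block for the first count (2). Fitting only the groups compared kept 21 calls, with 1 of 5 between the arms after recovery. Median scaling kept 7: 2 genes with heat shock in each arm, 2 with Sat III siRNA and 1 with scrambled siRNA between recovery and heat shock, and 0 elsewhere. It moved the median of all genes to -0.119 for heat shock with scrambled siRNA, and the share of calls that were higher to 65.6% (53.9% as reported) for heat shock with Sat III siRNA, 67% (56.1%) for recovery against heat shock with scrambled siRNA, and 6.82% (37.2%), 14.7% (33.4%) and 4.39% (34.2%) between the arms in untreated, heat-shocked and recovering cells. All-gene calls for heat shock were 157 with Sat III siRNA and 251 with scrambled siRNA, and 68 and 261 with replicates 3 and 4 alone, against 773 and 1184 as reported. Replicates 1 and 2 alone kept 15 calls, with 2 for heat shock and 1 for recovery against untreated cells with scrambled siRNA, and 0 and 1 between the arms after heat shock and recovery. Replicates 3 and 4 alone, where untreated and heat-shocked Sat III siRNA cells have 1 array each that is assumed to vary like the other groups, kept 9, with 2 for heat shock in each arm, 0 for recovery against untreated cells and 0 between the arms. The mean of all tested probes turned ATF4 to -0.32 with Sat III siRNA and -0.42 with scrambled siRNA for heat shock, and to 0.24 and 0.32 between recovery and heat shock. The authors' normalised table as labelled gave 0 calls in every comparison and turned ATF5 to 0.03 for heat shock with scrambled siRNA, and its 15 matching arrays kept 21 calls, with 3 between the arms after recovery. The same 15 arrays of the scanner table, chosen after seeing the data, kept 19, with 1 for recovery against untreated cells with Sat III siRNA and 2 between the arms after recovery. Leaving out 1 array gave 1 to 2 calls between the arms in untreated cells, 3 to 6 after recovery, 2 to 3 for recovery against untreated cells with Sat III siRNA and 2 to 4 with scrambled siRNA. Where the cause of a change is not given by the construction of the alternative, the cause was not tested. The dimmest ATF4 probe was detected on 15 of 22 arrays and the NUPR1 probes on 18 and 13, so their fitted differences depend on the background, and bounds are given where a group had no detected array.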

Other observations

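Among genes listed for HEK293T cells, VIM, an intermediate filament protein, was higher in recovering than in untreated cells, by 0.45 with Sat III siRNA (adjusted p = 0.00277, limma) and 0.48 with scrambled siRNA (adjusted p = 0.000798, limma). NEFM, a neurofilament subunit of the same list, was lower there. Its changes were -0.30 with Sat III siRNA (adjusted p = 0.025, limma) and -0.35 with scrambled siRNA (adjusted p = 0.00504, limma). Of the 6 listed genes tested, 1 was thus called higher and 1 lower in each arm. Between the arms, NEFM was higher with Sat III siRNA in untreated (0.30), heat-shocked (0.32) and recovering cells (0.36, adjusted p = 0.00384, limma). The 3 keratinocyte markers on the array were detected on 0 arrays. Of 6 fibroblast markers, 4 were detected on no array, while LUM was detected on 22 and COL1A1 on 21. LUM was higher in recovering than in heat-shocked Sat III siRNA cells (0.42, adjusted p = 0.0311, limma).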
